A study of Mus musculus with 4 samples.

Results

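The forkhead genes outside the FOXA group were followed through 4 lists of genomic regions bound by OTX2, the homeodomain transcription factor of the anterior embryo, in mouse cells differentiating to definitive endoderm (DE). Members were the protein-coding genes of the mouse RefSeq table (mm10, GRCm38) whose symbol is Fox, a letter from a to s and a number, without Foxa1, Foxa2, Foxa3 and Foxh1. This gave 40 genes of the 21887 protein-coding genes placed on chromosomes. The libraries with sample records were made by CUT&RUN, in which an antibody directs a nuclease to a protein on chromatin and the released DNA is sequenced. The antibody bound an HA tag on OTX2. The libraries described here come from 3 cell lines of a BL6/129 hybrid background labelled 7H, 7H1 and 7H2 OTX2-dTAG-EGFP, with 1 anti-HA library each, and from 1 IgG control library of line 7H2. All 4 libraries were taken at the primitive streak (PS) stage, reached from epiblast stem cells (EpiSCs) by 16 h with the WNT pathway activator CHIR (3 uM) and Activin A (40 ng/ml). For DE, 24 h with the BMP receptor inhibitor LDN (100 nM) and Activin A (100 ng/ml) followed. Libraries from EpiSCs and from DE cells were not analysed here. All lines carry the tagged OTX2, and no untagged line was used here.

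The region lists are named for binding in PS only, in PS and DE, in DE only, and in EPI and PS, where EPI is not spelled out. They held 1634, 6157, 31445 and 379 regions. Each region is a position alone, without peak height. Depth per library, the spread between clones and the signal over IgG are therefore unknown, and no test of a difference was run. The labelled cell types could not be checked against marker expression, since the lists hold binding positions alone. Intervals given below are 95% Wilson intervals, which cover counting error only. They treat regions as independent, which regions near 1 gene are not.

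Forkhead proteins share a winged-helix DNA-binding domain and are grouped by sequence into lettered subfamilies. FOXA factors open chromatin in endoderm, while the subfamilies followed here act in many other settings. FoxO factors are regulated by insulin and PI3K signals. FoxC and FoxF factors pattern mesoderm, Foxd3 acts in epiblast and neural crest, and Foxj1 in cells with motile cilia. Which of these genes have OTX2 regions nearby, and at which stage, is the question the lists address.

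Of the 40 forkhead genes, 29 had at least 1 assigned region and 11 had none. Each region went to the shortest protein-coding gene span around its midpoint, and where no span held the midpoint, to the closest gene end up to 100 kb away. By this rule 72.5% of the forkhead genes had a region, against 54.7% of all protein-coding genes. The share was also above that of all genes in 2 other transcription factor families, at 78.9% of SOX genes and 73.1% of nuclear receptor genes. The 40 genes held 139 of the 34616 assigned regions. DE only regions made up 101 of them (72.66%), PS and DE regions 30 (21.58%), PS only regions 7 (5.04%) and EPI and PS regions 1 (0.72%). Over all assigned regions the shares were 79.36% DE only, 15.55% PS and DE, 4.12% PS only and 0.97% EPI and PS.

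DE only regions were found at 29 forkhead genes (72.5%), the same 29 that had any region, against 50.1% of all protein-coding genes. The median was 1 DE only region per forkhead gene and 1 per gene over all protein-coding genes, while the mean was 2.52 per forkhead gene and 1.26 per gene over all. PS and DE regions were found at 12 forkhead genes, or 30.0%, against 16.3% of all protein-coding genes. PS only regions were found at 5 forkhead genes, or 12.5%, against 5.6% of all protein-coding genes. The single EPI and PS region lay at Foxd3, so 2.5% of the forkhead genes had one, against 1.45% of all protein-coding genes. The median was 0 regions per gene in these 3 lists, for the forkhead genes and for all genes.

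Forkhead genes also had longer territories. A territory is the stretch of chromosome whose positions the rule assigns to a gene, and its median was 95.1 kb for the forkhead genes and 45.1 kb for all genes. The forkhead territories held 30 PS and DE regions, against 14.91 at the mean rate over all territories, a ratio of 2.01 (1.41 to 2.87). They held 101 DE only regions, against 76.08 at the mean rate, a ratio of 1.33 (1.09 to 1.62). For PS only the ratio was 1.77 (0.858 to 3.64), from 7 regions. Without Foxn3, the forkhead gene with the most PS and DE regions, the PS and DE ratio was 1.72, and without Foxp1, the one with the most DE only regions, the DE only ratio was 1.26. The intervals do not cover the clustering of regions at single genes. When RefSeq genes of every kind competed for regions, including non-coding ones, the forkhead genes kept 19 PS and DE, 65 DE only and 1 PS only region, and the ratios were 2.47 for PS and DE and 1.66 for DE only.

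The forkhead genes left out of the set had higher ratios as a group, with most of their regions at Foxa2. Foxa1, Foxa2, Foxa3 and Foxh1 together held 7 PS and DE and 16 DE only regions, ratios of 9.16 (4.44 to 18.9) and 4.1 (2.52 to 6.66). Foxa2 held 6 of the PS and DE and 12 of the DE only regions, in 204 of the 270.9 kb of territory. Foxa1 had 1 PS and DE and 3 DE only regions, Foxh1 had 0 and 1, and Foxa3 had 0 and 0. Ratios without Foxa2 were not computed. Among other transcription factor families, the 19 SOX genes had ratios of 0.947 (0.514 to 1.74) for PS and DE and 1.21 (0.95 to 1.54) for DE only. The 26 nuclear receptor genes had 0.402 (0.137 to 1.18) and 0.92 (0.662 to 1.28). DE only regions were found at 68.4% of the SOX and 69.2% of the nuclear receptor genes, against 72.5% of the forkhead genes outside FOXA. For PS and DE the shares were 31.6% and 11.5%, against 30.0%. The differences between families were not tested.

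**Figure D1:**
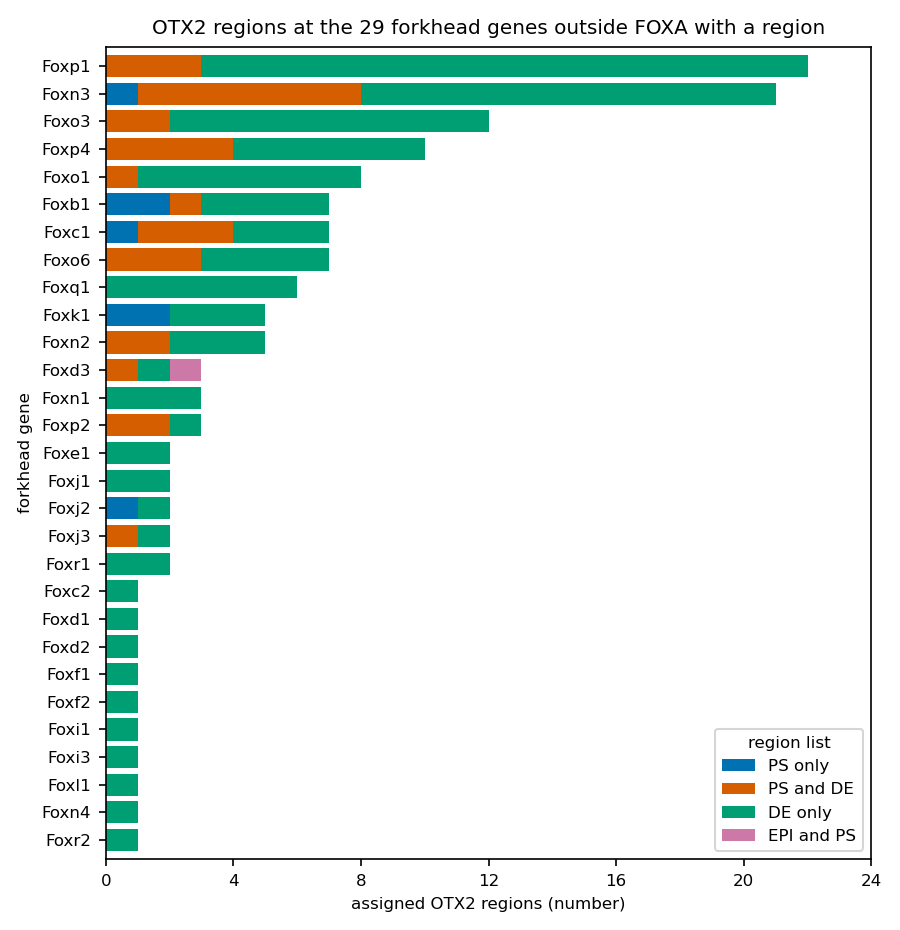
Number of assigned OTX2 regions (x axis) at each of the 29 forkhead genes outside FOXA with a region, stacked by region list. Foxp1 with 22 regions and Foxn3 with 21 have the longest bars, and 10 genes have a single DE only region and no other.

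Few genes held most of the regions. Foxp1, Foxn3 and Foxo3 had 55 of the 139 regions (39.6%), and with Foxp4 and Foxo1 the count was 73 (52.5%). The territories of Foxp1, Foxn3 and Foxo3 were 747, 536 and 195 kb, of 5287.8 kb for all 40 genes. By subfamily, the 4 FoxP genes held 35 regions in 1608 kb of territory, the 4 FoxN genes 30 in 774.1 kb and the 4 FoxO genes 27 in 609.7 kb. The mean rate over all gene territories was 1.813 regions per 100 kb. The remaining subfamilies held at most 8 each, FoxC having 8 in 107.1 kb of territory, FoxB 7, FoxJ and FoxQ 6, and FoxD and FoxK 5. FoxE, FoxF and FoxI had 2 each, all DE only.

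The FoxP genes differed widely among themselves. FOXP proteins are repressors that work as dimers, with Foxp1 known in heart, lung, lymphocytes and neurons, Foxp2 in brain circuits for vocalisation, Foxp3 in regulatory T cells and Foxp4 in lung and foregut. Foxp1 (chromosome 6, 98925342 to 99522746) had 19 DE only and 3 PS and DE regions in a territory of 747 kb. Foxp2 (chromosome 6, 14901349 to 15441977) had 1 DE only and 2 PS and DE regions in a territory of 714 kb. The mean rate would give 10.7 DE only regions at Foxp1 and 10.3 at Foxp2. For DE only regions, Foxp1 thus stood above the mean rate and Foxp2 below it, with territories of nearly one length. For PS and DE regions the mean rate would give 2.11 at Foxp1 and 2.01 at Foxp2, close to the 2 found at Foxp2. Only 22 of the 21887 genes, Foxp1 included, had 19 or more DE only regions. Of the 22 Foxp1 regions, 20 lay inside the gene. With the nearest gene end in every case, Foxp1 held 11 DE only and 1 PS and DE region. Foxp3, with a territory of 16.8 kb, had 0 regions.

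Foxp1 and Foxp4 were the only forkhead genes with a region across a promoter window of the RefSeq promoter table, which covers 250 bases before and 50 after a start site. The table held 28 windows for 25 of the 40 genes. The PS and DE region at 99520963 to 99521028 lay across 1 of 3 Foxp1 start sites in the table, the one with the highest coordinate (99520993), with its midpoint 2 bases upstream, and the DE only region at 47924749 to 47924858 lay 0.171 kb upstream of the Foxp4 start site. Both windows are printed 5′ to 3′ on the minus strand of GRCm38.p6 (RefSeq), because they are the forkhead windows of the table that a region overlaps, and capitals mark the bases inside the region.
Foxp1, chr6:99520944-99521243: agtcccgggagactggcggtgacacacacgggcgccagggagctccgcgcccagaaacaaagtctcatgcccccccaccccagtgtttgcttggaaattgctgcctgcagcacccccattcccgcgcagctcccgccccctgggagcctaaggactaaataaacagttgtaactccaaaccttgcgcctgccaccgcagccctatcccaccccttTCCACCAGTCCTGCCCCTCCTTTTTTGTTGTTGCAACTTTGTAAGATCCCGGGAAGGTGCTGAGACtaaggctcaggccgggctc
Foxp4, chr17:47924583-47924882: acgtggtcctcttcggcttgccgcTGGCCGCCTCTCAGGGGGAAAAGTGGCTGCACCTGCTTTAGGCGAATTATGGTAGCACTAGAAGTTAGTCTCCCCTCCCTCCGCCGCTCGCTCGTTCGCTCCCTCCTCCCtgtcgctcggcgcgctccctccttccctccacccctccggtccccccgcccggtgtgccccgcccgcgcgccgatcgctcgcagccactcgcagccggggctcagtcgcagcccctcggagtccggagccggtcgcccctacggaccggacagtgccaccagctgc
The capitals span 66 bases in the Foxp1 window, which has a GC content of 60.3%, and 110 bases in the Foxp4 window, with 70.3%. Neither window holds the letters TAATCC or their reverse complement GGATTA, the core recognised by OTX-type homeodomains, nor the forkhead letters TGTTTAC or GTAAACA. The windows were searched on both strands for exact matches, and neither motif contains the other. Over the 28 forkhead windows, 2 held TAATCC on either strand (7.14%, 1.98 to 22.7), at Foxn3 and Foxp3, against 6.42% of the 21263 windows of all protein-coding genes. TGTTTAC was found in 0 of the 28 windows, against 3.01% of all windows. DE only regions overlapped 1 of the 28 forkhead windows (3.57%), against 14.1% of all windows, and PS and DE regions likewise 1 of 28, against 1.92% of all windows. Foxb1, Foxc2, Foxj1 and Foxo6 each had a DE only region within 1 kb of a gene end but no window in the promoter table. Overlap with their promoters could therefore not be counted.

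Foxp4 (chromosome 17, 47867133 to 47924632) had 4 PS and DE and 6 DE only regions in 130 kb of territory, where the mean rate would give 0.366 and 1.87. The first of the PS and DE regions lay inside the gene and the other 3 together upstream, from 47953118 to 47955277, at 28.6, 28.8 and 30.6 kb from the start site. These 3 regions spanned 2.16 kb with no DE only region among them. With genes of any kind in competition, Foxp4 kept 1 PS and DE and 4 DE only regions. Of all protein-coding genes, 171 had 4 or more PS and DE regions.

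**Figure D2:**
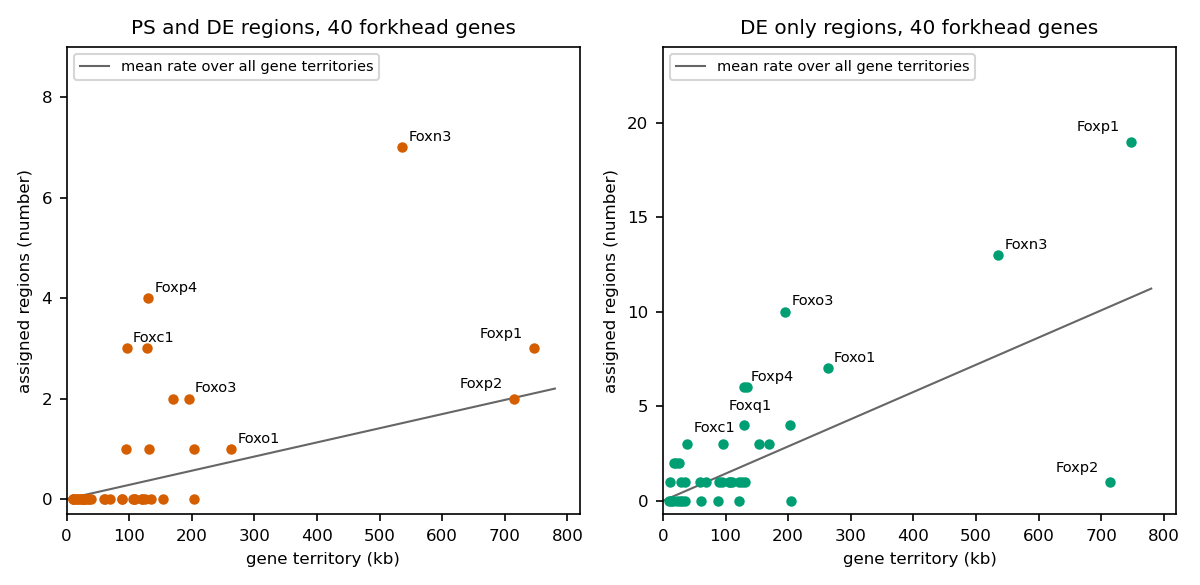
Assigned regions (y axis) against the length of the gene territory in kb (x axis) for each of the 40 forkhead genes, for PS and DE regions on the left and DE only regions on the right. The grey line is the mean rate over all gene territories; Foxn3 lies above it in both panels, and Foxp2, with 1 DE only region in 714 kb, lies far below it on the right.

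By the assignment rule used, Foxn3 held the most PS and DE regions of the forkhead genes. FOXN3 is a repressor first known as a checkpoint suppressor in yeast. Foxn3 (chromosome 12, 99190081 to 99563667) had 7 PS and DE, 13 DE only and 1 PS only region in a territory of 536 kb, where the mean rate would give 1.51 PS and DE and 7.72 DE only regions. All 7 PS and DE regions lay inside the gene. With regions assigned by the nearest gene end in every case, Foxn3 held 1 PS and DE and 4 DE only regions, fewer PS and DE regions than the 4 of Foxp4. Only 17 genes of the genome table, Foxn3 included, had 7 or more PS and DE regions. A run of 9 regions with gaps under 5 kb lay inside Foxn3 at 99326074 to 99342511, 16.4 kb in all, with 4 PS and DE and 5 DE only regions interspersed. Its midpoints lay 108 to 124 kb downstream of the start site in the promoter table. This was the longest run at any forkhead gene, the next having 4 regions. The PS only region at Foxn3 lay apart, 77.9 kb outside the gene.

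The other FoxN genes had fewer regions. Foxn2 had 2 PS and DE and 3 DE only regions in 170 kb. Foxn1, the gene of thymus epithelium that is mutated in nude mice, had 3 DE only regions, all inside the gene, in 38.7 kb, where the mean rate would give 0.556. Foxn4, of retinal progenitors, had 1 DE only region.

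**Figure D3:**
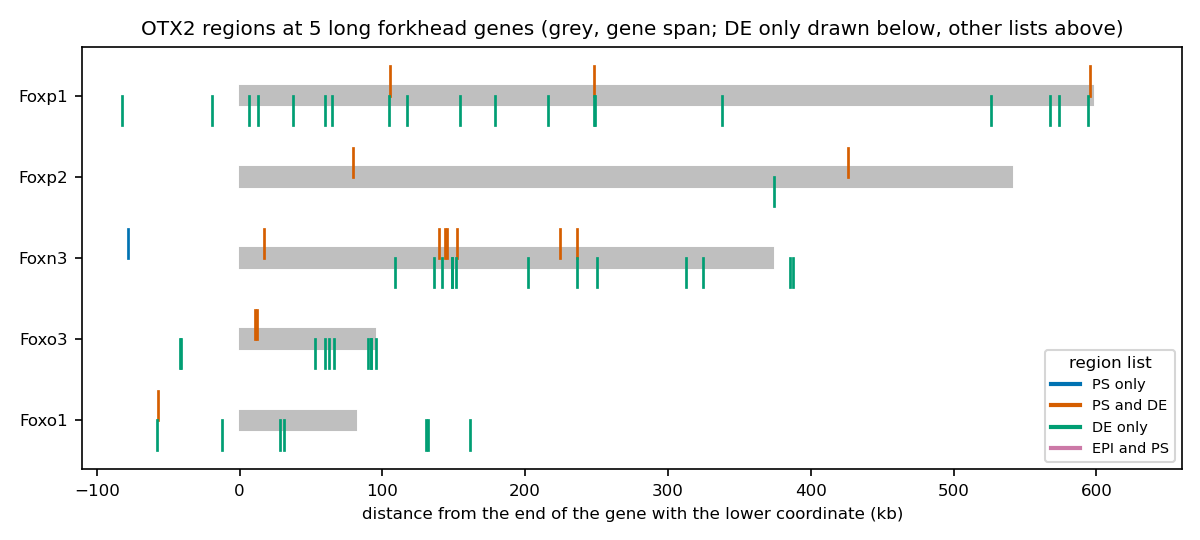
Position of every assigned OTX2 region along Foxp1, Foxp2, Foxn3, Foxo3 and Foxo1, as distance in kb from the gene end with the lower coordinate (x axis), with grey bars for gene spans and ticks coloured by region list. Regions spread along Foxp1, while 9 of the 21 Foxn3 regions sit within 16.4 kb and Foxp2 has 3 regions in all.

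The FoxO genes held 27 regions, 21 of them DE only and 6 PS and DE. Over all assigned regions, 79.36% were DE only and 15.55% PS and DE. Foxo3 (chromosome 10, 42181845 to 42276695) had 10 DE only and 2 PS and DE regions in 195 kb, where the mean rate would give 2.8 and 0.548. A group of 4 DE only regions lay across its start, within 6.09 kb, at 4.75, 2.78 and 2.6 kb downstream and 1.05 kb upstream of the start site. A further 4 DE only regions lay inside the gene, 28.4 to 42.3 kb downstream of the start site, and 2 lay 41.0 and 41.8 kb past its far end. Both PS and DE regions lay inside the gene near that end, 82.9 and 83.7 kb downstream of the start site, with DE only regions on both sides. With genes of any kind in competition, Foxo3 kept 6 DE only regions. Foxo1 (chromosome 3, 52268337 to 52350109) had 7 DE only regions, 28.2 and 31.3 kb downstream of its start inside the gene and otherwise outside it, up to 79.4 kb away. Its single PS and DE region lay 57.2 kb upstream, at 52211042 to 52211143, beside a DE only region that ended 269 bases before it. Foxo1 held 4 DE only and 0 PS and DE regions with assignment within 50 kb, and 2 and 0 with genes of any kind in competition.

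Foxo6, expressed mainly in brain, had 3 PS and DE and 4 DE only regions in 129 kb, where the mean rate would give 0.364 and 1.86. Its DE only regions lay inside the gene or within 12.2 kb of it, and its PS and DE regions farther out, at 17.5, 33.8 and 39.1 kb. With genes of any kind in competition it kept 3 DE only and 0 PS and DE regions. Foxo4, with a territory of 22.7 kb on chromosome X, had 0 regions. FoxO genes had 0 PS only and 0 EPI and PS regions.

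Genes of the PI3K, AKT and FOXO pathway were counted in the same way, from a list of 26 genes drawn up from general knowledge. Of these, 24 had a region, against 54.7% of all protein-coding genes, and they held 92 DE only, 18 PS and DE, 3 PS only and 2 EPI and PS regions. The ratio to the mean rate was 1.6 for DE only (1.31 to 1.96) and 1.6 for PS and DE (1.01 to 2.53). Sgk1, a kinase that phosphorylates FOXO proteins, had 11 DE only and 1 PS and DE region. Cdkn1b, a FOXO target that encodes the cell cycle inhibitor p27, had 3 PS and DE, 1 PS only and 1 DE only region. Akt1 and the coactivator gene Crebbp had 0 regions.

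Foxc1 had regions of all 3 main lists, most of them upstream of the gene. FOXC1 and FOXC2 are factors of mesoderm, eye and vessels. Foxc1 (chromosome 13, 31806646 to 31810635) had 3 PS and DE, 3 DE only and 1 PS only region in 96.1 kb, where the mean rate would give 0.271 PS and DE and 1.38 DE only regions. The PS and DE regions lay 2001, 6013 and 12966 bases upstream of the start site, the nearest at 31804560 to 31804730. A DE only region lay 13961 bases upstream, and the other 2 lay across the far end of the gene, 3.91 and 4.13 kb downstream of the start site. The PS only region lay 46.2 kb upstream. PS regions were thus upstream, while DE only regions lay on both sides.

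Foxc1 shares its neighbourhood on chromosome 13 with Foxf2, a gene of gut mesenchyme, and Foxq1, known from hair defects of the satin mouse. From Foxq1 to Foxc1 (31558170 to 31810635, 252 kb) there were 8 regions, all assigned to these 3 genes, with 4 DE only, 3 PS and DE and 1 PS only. Foxq1 had 6 regions, all DE only, where the mean rate would give 1.95. Of these, 5 lay on the side away from Foxc1, 26.5 to 80.7 kb outside the gene, and 3 of those within 5.24 kb. With assignment within 50 kb Foxq1 held 2 regions, and with genes of any kind in competition 1. Foxf2 had 1 DE only region, 74.2 kb outside it. All 4 regions of this neighbourhood that were bound in PS lay nearest Foxc1.

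**Figure D4:**
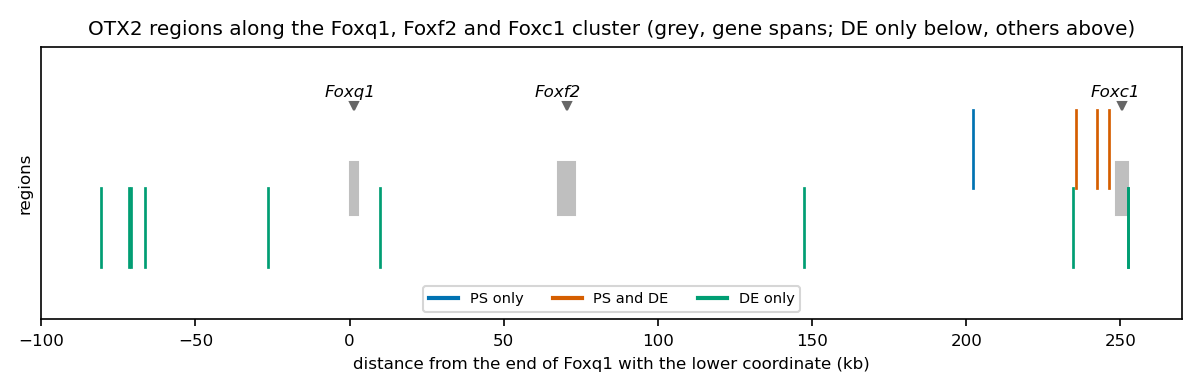
Position of the OTX2 regions assigned to Foxq1, Foxf2 and Foxc1, as distance in kb from the lower-coordinate end of Foxq1 (x axis), with grey boxes for gene spans and ticks coloured by region list. The 3 PS and DE regions and the PS only region lie just left of Foxc1, and DE only regions alone lie around Foxq1.

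The paralogous neighbourhood on chromosome 8 had DE only regions alone. Foxf1, Foxc2 and Foxl1, genes of lateral plate mesoderm, vessels and gut mesenchyme, had 1 DE only region each and 0 in the other lists. The mean rate would give 1.52, 0.158 and 1.54 DE only regions at Foxf1, Foxc2 and Foxl1. The Foxc2 region (121116021 to 121116118) had its midpoint 102 bases from the gene, the Foxl1 region 2.25 kb and the Foxf1 region 56.5 kb. From Foxf1 to Foxl1 (121084386 to 121130644) 2 regions lay in 46.3 kb.

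Among genes of ectoderm and epiblast, Foxb1 and Foxd3 had regions bound in PS. Foxb1, of the caudal midbrain and mammillary bodies (chromosome 9, 69757710 to 69760940), had 2 PS only, 1 PS and DE and 4 DE only regions. With assignment within 50 kb, 1 PS only, 0 PS and DE and 2 DE only regions were left at Foxb1. With genes of any kind in competition, 0 PS only, 0 PS and DE and 1 DE only region were left. A DE only region at 69760995 to 69761120 began just past an end of Foxb1, its midpoint 117 bases away. The nearer PS only region (69763013 to 69763107) had its midpoint 2120 bases away. The other PS only region, 87.1 kb away, began 285 bases after the PS and DE region. Foxd3 (chromosome 4, 99656299 to 99658671) had the EPI and PS region, 13969 bases upstream of its start site at 99642283 to 99642377, a DE only region 54.6 kb upstream and a PS and DE region 66.2 kb upstream. Foxd3 thus had 1 region in each of 3 lists and 0 in PS only. Its EPI and PS region alone was left with assignment within 50 kb, and likewise with genes of any kind in competition. Foxd1 and Foxd2 had 1 DE only region each, that of Foxd2 lying 2.73 kb downstream of its start site and 0.11 kb past the far end of the gene.

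PS only regions were also found inside Foxj2 (1 region) and at Foxk1 (2 regions), which encodes a regulator of muscle progenitors and metabolism. The Foxk1 pair lay 60.5 and 60.9 kb outside the gene, 209 bases apart, and Foxk1 also had 3 DE only regions. Foxj1, the master gene of motile cilia, had 2 DE only regions in 17.2 kb, the nearer across the end of the gene at 116335388 to 116335501. Foxj3 had 1 PS and DE and 1 DE only region, both inside the gene. Foxe1, a gene of the thyroid, which arises from foregut endoderm, had 2 DE only regions 10.3 and 11.1 kb outside it. Foxi1 and Foxi3, of the inner ear and pharyngeal arches, and Foxr2 had 1 DE only region each, and Foxr1 had 2.

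Among the 11 forkhead genes with 0 regions were Foxb2, Foxd4, Foxe3, Foxi2, Foxk2, Foxl2, Foxm1, Foxo4, Foxp3 and Foxs1. Most had short territories, with a median of 29.9 kb, and together they spanned 626.6 kb, in which the mean rate would give 9.01 DE only regions. The 11 genes were picked for having 0 regions, so the shortfall follows from the choice and is no measure of depletion. The territory of Foxi2 was 121 kb. The farthest assigned region of the set lay 97.8 kb from Foxb1 and the nearest one left out 103 kb from Foxl1.

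Regions of the lists that include PS lay at 14 forkhead genes (35.0%), against 20.1% of all protein-coding genes. All 14 also had a DE only region, as did 77.2% of all the genes with a region in those lists. The other 15 genes with a region had DE only regions alone, 10 of them a single one. Some regions of different lists lay side by side. Of the 30 PS and DE regions, 6 (20.0%, 9.51 to 37.3) had a DE only region within 1 kb, against 14.3% (13.4 to 15.3) of all assigned PS and DE regions. These 6 were at Foxc1, Foxn3, Foxo1 and Foxp1. At Foxp1 the PS and DE region at 99173344 to 99173459 was followed by 2 DE only regions within 0.808 kb. Whether neighbours this close are separate sites was not tested.

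Most forkhead regions lay away from gene ends. The shares below were not adjusted for territory length, whose median was 95.1 kb for the forkhead genes and 45.1 kb for all genes. A midpoint within 1 kb of an end of the assigned gene was found for 8 of the 101 DE only regions (7.92%, 4.07 to 14.9), against 15.9% (15.4 to 16.3) of all assigned DE only regions. These 8 regions were at Foxb1, Foxc1, Foxc2, Foxd2, Foxj1, Foxo6 and Foxp4. For PS and DE the count was 0 of 30 (0 to 11.4%), against 11.7% of all assigned PS and DE regions. The Foxp1 region across the start site with the highest coordinate in the promoter table lay 1.75 kb from the end of the gene span, so it is not counted here. Regions inside the gene made up 56.7% (39.2 to 72.6) of PS and DE and 51.5% (41.9 to 61.0) of DE only regions at forkhead genes, against 53.0% and 54.4% over all assigned regions. For the 25 genes with a start site in the promoter table, 68 of 99 regions lay over 20 kb from the nearest start and 2 within 1 kb. Distances to start sites were not counted over all genes, so no share stands beside these. Foxb1, Foxc2, Foxj1 and Foxo6 are not among these 25 genes. The annotation used here gives gene spans and start sites, so the position within exons, introns or UTRs is not given.

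**Figure D5:**
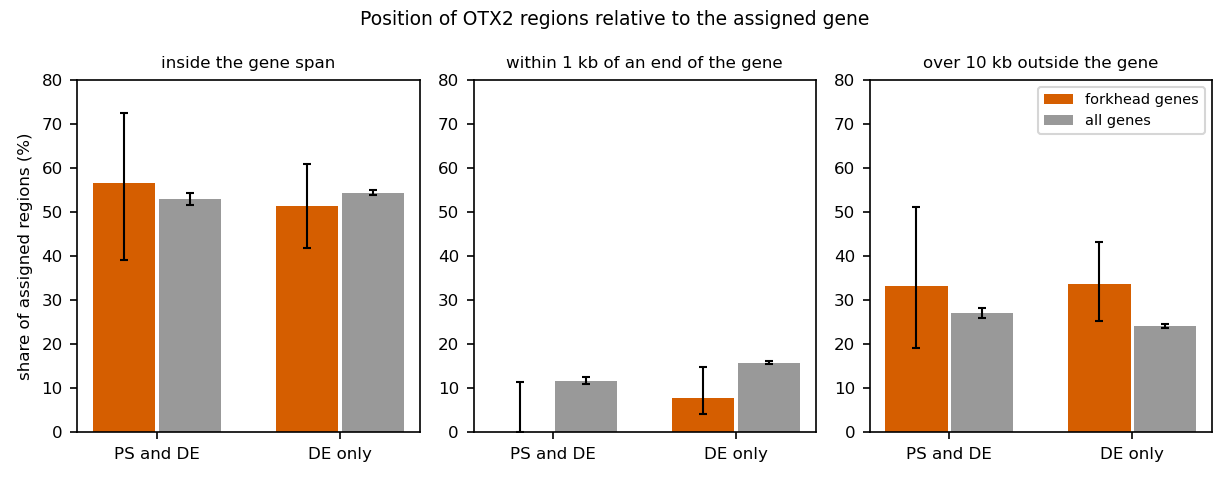
Share of assigned regions in percent (y axis) that lie inside the gene, within 1 kb of a gene end or over 10 kb outside the gene, for PS and DE and DE only regions; bars are forkhead genes outside FOXA (orange) and all genes (grey), with 95% Wilson intervals. The interval at gene ends is 4.07 to 14.9% for DE only regions of forkhead genes, against 15.9% over all genes, and the intervals inside genes overlap those of all genes.

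The width of regions at forkhead genes was close to that of their lists. The median was 106.5 bp for the 30 PS and DE regions (48 to 336 bp) and 119 bp for the 101 DE only regions (62 to 369 bp), against 123 bp and 119 bp over all regions of these lists. The widest were a DE only region of 369 bp at Foxn2 and one of 367 bp upstream of Foxo3.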

How the data were processed

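CUT&RUN used 500000 cells per sample, per the labels' protocols. The submitters' processing notes list MACS2 2.2.6, bedtools 2.30, Picard 2.26.10, SAMtools 1.14 and Bowtie2 2.3.5.1, and the mm10 build. How peaks were called, and whether replicates were pooled, is not given in the sources used here. Deposited by the authors are 4 lists of region positions (chromosome, start and end) with no other value, so depth is unknown.

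Starts were shifted to count from 1. On an unplaced scaffold, 2 DE only regions were not used. Genes, promoter windows and start sites came from RefSeq tables of GRCm38. Between 87.3% (PS only) and 88.4% (EPI and PS) of a list's regions were assigned to a gene. Territories were counted base by base with the same rule. The number at the mean rate is a list's assigned regions times the share of all territory, and intervals on ratios are the Wilson interval of the share of regions. The assignment was checked on simulated positions. Python 3.11.15, numpy 2.4.6, pandas 2.3.3 and scipy 1.17.1 were used.

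The members and gene lists were chosen with earlier results of these data known. Members described with values are the 6 with the most regions per list, those with PS only or EPI and PS regions, the FoxO and FoxP genes, both forkhead clusters and members with gene-end regions; others were added after their values were seen. The planned search for letters inside regions needs a genome sequence and was not run. Competition by genes of any kind and leaving out the top member were alternatives added after seeing the data. Some genes are not reported here.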

Additional observations from a re-analysis of the deposited data

How the results depend on the processing

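Of 91 comparisons of a main value with an alternative, 68 stayed within 1.5 times the main count or within the main interval, and 23 moved. Keeping only regions of at least 150 bp left 2 PS only regions at 2 forkhead genes, 9 PS and DE regions at 6 genes, 36 DE only regions at 16 genes and 0 EPI and PS regions. Keeping only regions at or above the median width of each list left 3 at 3 genes, 11 at 7, 51 at 19 and 0. Both settings remove regions by construction, and the ratio to the mean rate was then 1.77 and 1.5 for PS and DE and 1.44 and 1.35 for DE only. Assignment within 50 kb left 3 PS only regions at 3 genes. With RefSeq genes of any kind in competition, 1 PS only region at 1 gene, 19 PS and DE and 65 DE only regions were left, and the DE only ratio was 1.66, against 1.33. The cause of that higher ratio was not tested. Over all alternatives the ratio ran between 1.5 and 2.47 for PS and DE and between 1.24 and 1.66 for DE only. Of the 47 counts of single genes per list, 45 stayed within 1.5 times when regions within 500 bp were merged, 45 with assignment within 1 Mb, 41 with the nearest gene end in every case, 34 with assignment within 50 kb and 25 with genes of any kind. With regions at or above the median width 14 did, and with regions of at least 150 bp 7.

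No paired analysis was possible because no value per library was used. Leaving out single clones was not possible for the same reason. Weak binding cannot be told from none, since regions carry no height and depth is unknown.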

Other observations

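Some regions of forkhead genes lie in non-coding genes of the RefSeq table. The midpoints of 23 of the 139 regions (16.5%), at 9 forkhead genes, fell inside the span of a non-coding gene. The share over all assigned regions was not counted, so whether 16.5% is high or low is unknown. At Foxp4, the 3 PS and DE regions upstream of the gene lay in Gm29938. At Foxo3, 4 DE only regions lay in Gm38485, which overlaps Foxo3, and at Foxo6 a DE only region lay in Foxo6os. Which gene such a region belongs to was not tested.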
